A study of Mus musculus with 6 samples.

Results

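The genes described here are those of the extracellular matrix scaffold and of the enzymes that cut it, namely collagen chains, laminin chains, the metalloproteases of the ADAMTS and MMP families, and the TIMP inhibitors. Members were the protein-coding genes whose symbols begin with Col, Lam, Adamts, Mmp or Timp in the form these families use. The rule took 78 of the 15388 genes of the deposited table, namely 38 collagen chains, 11 laminin chains, 15 Adamts genes, 10 Mmp genes, 3 Timp genes and Col4a3bp. Col4a3bp encodes a ceramide transfer protein and matched by its name alone. Of 102 genes that were listed for the families, 25 had no row in the table, among them Timp1, Mmp3, Mmp8, Mmp12 and Mmp13, and were not analysed here.

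RNA came from the hippocampus of tamoxifen-induced Cx3cr1-cre/ERT2+; NuTRAP+ mice, about 3 months old. Both fractions came from the same mice, so every library shares the Cre and reporter alleles and the tamoxifen. After recombination the NuTRAP reporter labels ribosomes with EGFP, and translating ribosome affinity purification (TRAP) pulls these ribosomes down with an antibody against GFP. The Input fraction was a portion of the cleared homogenate, and the positive fraction was the RNA bound to the beads. Each of 3 animals, numbered 201, 207 and 208, gave 1 Input and 1 Positive library, with 14879734 to 17757918 reads per library. The Cx3cr1 promoter drives Cre in microglia and also in macrophages at the borders of the brain. Levels are given as scaled reads, that is, reads over the size factor of the library. Both fractions of an animal came from the same homogenate, so they differ in RNA composition and not in the number of cells. The part of RNA from untagged cells in the positive fraction was not measured.

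Collagens are triple helices of 3 chains, and the families differ in the structure they build. Fibrillar collagens form cable-like fibrils, type IV collagen and the laminins form the sheets of the basement membrane around vessels, and network, fibril-associated and transmembrane collagens attach to these structures or to cells. In the brain, fibrillar collagen is largely confined to vessels and meninges, while the space between neurons holds hyaluronan and hyalectan proteoglycans. MMP and ADAMTS enzymes cleave these components, and TIMP proteins inhibit the enzymes.

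The stretch before the start site is shown for members with large differences in either direction, 3 that were higher in the positive fraction (Col15a1, Mmp28, Col27a1) and 3 that were lower (Col8a1, Col8a2, Col1a2). Each is the 250 bases upstream of the start that RefSeq gives on GRCm38.p6, 5′ to 3′ on the strand of the gene. The windows are chr4:47207762-47208011 (plus strand) for Col15a1, chr11:83463041-83463290 (minus) for Mmp28, chr4:63215162-63215411 (plus) for Col27a1, chr16:57754738-57754987 (minus) for Col8a1, chr4:126286544-126286793 (plus) for Col8a2 and chr6:4505368-4505617 (plus) for Col1a2. Capitals mark exact matches, on either strand, to the GC box GGGCGG or to GAGGAA, the core of sites of the PU.1 type.
Col15a1: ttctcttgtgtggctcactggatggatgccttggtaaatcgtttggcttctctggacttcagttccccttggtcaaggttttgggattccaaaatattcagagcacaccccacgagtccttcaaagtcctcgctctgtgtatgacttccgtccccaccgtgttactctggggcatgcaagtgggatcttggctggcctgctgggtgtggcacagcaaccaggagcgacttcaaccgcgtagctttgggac
Mmp28: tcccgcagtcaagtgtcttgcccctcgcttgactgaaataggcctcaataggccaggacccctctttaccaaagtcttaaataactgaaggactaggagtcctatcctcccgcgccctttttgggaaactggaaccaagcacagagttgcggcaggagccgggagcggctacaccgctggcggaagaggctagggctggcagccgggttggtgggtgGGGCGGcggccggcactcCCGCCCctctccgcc
Col27a1: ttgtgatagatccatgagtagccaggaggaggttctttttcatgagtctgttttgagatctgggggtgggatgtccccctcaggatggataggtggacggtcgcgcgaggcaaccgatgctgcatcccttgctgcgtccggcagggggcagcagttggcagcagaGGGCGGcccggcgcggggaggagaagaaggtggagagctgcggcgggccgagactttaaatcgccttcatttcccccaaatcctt
Col8a1: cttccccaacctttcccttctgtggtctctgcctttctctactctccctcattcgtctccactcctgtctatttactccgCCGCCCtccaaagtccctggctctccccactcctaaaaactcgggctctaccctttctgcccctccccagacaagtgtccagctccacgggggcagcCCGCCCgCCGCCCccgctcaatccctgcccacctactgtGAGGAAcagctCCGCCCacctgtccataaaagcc
Col8a2: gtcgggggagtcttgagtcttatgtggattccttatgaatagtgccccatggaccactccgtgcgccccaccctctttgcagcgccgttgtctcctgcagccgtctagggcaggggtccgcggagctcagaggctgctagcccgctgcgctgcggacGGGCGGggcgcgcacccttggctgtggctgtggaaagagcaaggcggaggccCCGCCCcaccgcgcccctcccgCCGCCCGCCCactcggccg
Col1a2: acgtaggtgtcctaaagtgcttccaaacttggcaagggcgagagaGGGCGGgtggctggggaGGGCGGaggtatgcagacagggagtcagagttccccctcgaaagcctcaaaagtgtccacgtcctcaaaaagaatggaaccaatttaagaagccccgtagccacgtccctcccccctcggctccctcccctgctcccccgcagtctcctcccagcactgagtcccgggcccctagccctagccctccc
Of 32851 promoter windows of this length in the RefSeq set, 32.7% held GGGCGG and 23.3% held GAGGAA. Among the 50 members with an entry in this set, the shares were 68% and 26%. The 6 windows shown were 53.6% to 70% G or C, beside a median of 52.4% over the set. The GC box occurred 2 times before Mmp28, 1 time before Col27a1, 4 times before Col8a1, 4 times before Col8a2 where 2 of the matches overlap, and 2 times before Col1a2. Only the window of Col8a1 among the 6 held GAGGAA. The window of Col15a1 held neither motif, and none of the 6 held TATAAA, which 12.4% of all windows held. The windows of Col27a1 and Col1a2 lie inside the deposited spans of these genes, which begin further upstream. The window of Mmp28 runs partly into its deposited span, and that of Col8a2 ends on the first base of its span. These matches describe letters and were not tested as binding sites. In this set 50 of the 78 members had an entry, and Adamts4 had none.

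Most matrix genes were not enriched with the ribosomes of the tagged cells. Of the 78 members, 29 (37.2%) differed between the positive fraction and Input, against 46% of the 15343 genes tested (adjusted p-value under 0.05 in the edgeR quasi-likelihood test of 3 against 3 libraries). Enrichment was found for 8 members (10.3%, against 23.9% of all genes) and depletion for 21 (26.9%, against 22% of all genes). The counts by group below are small, were not tested as groups and are to be read beside these shares of all genes. No member was over 5-fold enriched, while 3.75% of all genes were, and the largest enrichment was the 3.94-fold of Col15a1. The log2 fold changes of 68 members lay between -1 and 1, and their median over the members was -0.225, beside -0.0128 over all genes. An unadjusted edgeR p-value under 0.05 was reached by 32 members. The share of all genes past that limit was not counted, so this number has no background beside it.

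All 29 members that differed had the same direction in the 3 animals. In 26 of them the 3 Positive libraries did not overlap the 3 Input libraries, and 3 members that did not pass the test (Adamts8, Adamts14 and Col25a1) also had separate groups. These 29 members with separate groups are 37.2% of the members, against 56.4% of all genes. With the animal as a block in the same test 36 members differed, or 46.2% against 49.3% of all genes, with 12 higher and 24 lower. In each of 6 fits that left out 1 library, 15 members (19.2%, against 31.2% of all genes) were called, 4 higher and 11 lower. The shares of all genes with the block and in these 6 fits were not split by direction. All 78 members passed the filter on low values, which asked for over 20 scaled reads in all 3 libraries of a fraction, 8 of them in 1 fraction only (5 in Input, 3 in Positive). Of these 8, Col14a1 and Col17a1 were called, and a gene that passes in this way tends to differ by construction.

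**Figure D1:**
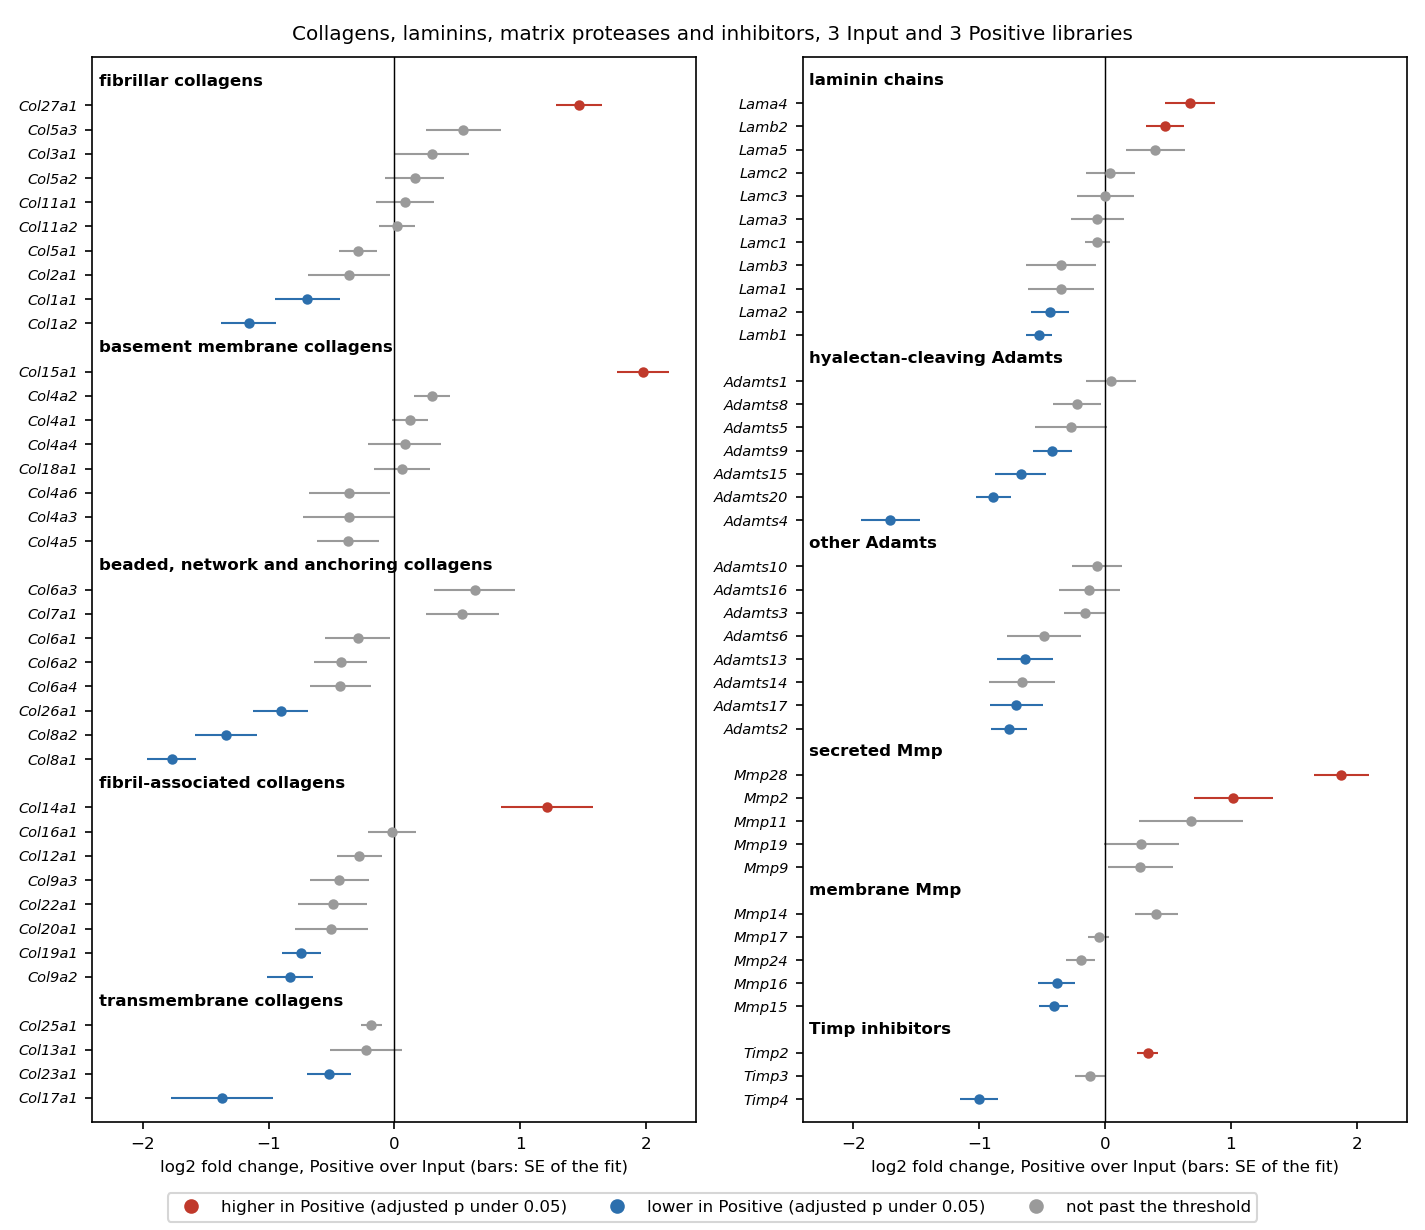
Log2 fold change of the positive fraction over Input for the 77 members in role groups, without Col4a3bp. Bars show the standard error derived from the test statistic. Red points were higher and blue points lower at an edgeR adjusted p-value under 0.05, and grey points did not pass. Col15a1, Mmp28 and Col27a1 lie furthest to the right and Col8a1 and Adamts4 furthest to the left.

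The libraries were set against markers of the cells that hippocampus can hold. All 10 microglial markers were higher in the positive fraction, with a median log2 fold change of 4.62, and Csf1r, a receptor microglia need to survive, had 1095 scaled reads in Input and 27060 in the positive fraction on average. Markers of border macrophages (7 of 7 higher, median 4.15) and of endothelial cells (10 of 10 higher, median 1.97) moved the same way. Depletion was found for 8 of 8 oligodendrocyte markers (median -2.34), 8 of 8 markers of their precursors (-1.86), 8 of 8 of choroid plexus (-1.90) and 9 of 10 of fibroblasts (-0.92). Mural cell markers were mixed, 1 higher and 1 lower of 10, and of 8 astrocyte markers 1 was higher and 3 were lower. Neuronal markers had 2 of 8 higher and a median of 0.10. None of the listed markers was at 0 in any library.

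The Positive library of animal 208 stood apart from the other Positive libraries, and not for matrix genes alone. It held the lowest of the 3 Positive values in 62 of 78 members (79.5%) and in 35 of 38 collagen chains (92.1%), against 44.2% of all genes tested. Without this library 36 of 78 members differed, beside 47.3% of all genes, and 15 of these members were higher, against 8 with it. Without both libraries of animal 208, an alternative chosen after seeing the data, 27 members differed, beside 39.4% of all genes. Of these 27, 13 were higher and 14 lower, in place of 8 and 21. The shares of all genes in these fits were not split by direction, so the counts of higher and lower members have no background beside them. Positive 208 was also the lowest Positive library for 10 of 10 microglial, 10 of 10 endothelial, 10 of 10 mural, 9 of 10 fibroblast and 6 of 7 border macrophage markers, and for 0 of 8 neuronal markers. Over 10 mural markers the summed level was 4328 and 3793 in the Positive libraries of animals 201 and 207 and 2184 in that of 208, beside 3336 to 3466 in Input. The part of these cells in the values of animal 208 was not tested.

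Basement membrane collagens gave the member with the largest enrichment. Col15a1 (ENSMUSG00000028339, chr4:47208161-47313167, plus strand, mm10) encodes a collagen of the basement membrane zone of vessels and muscle. It had 118, 100.5 and 62.9 scaled reads in the Input of animals 201, 207 and 208 and 391, 421 and 299 in the positive fraction. All Positive libraries lay above all Input libraries, and the log2 fold change was 1.98 ± 0.21 (SE, edgeR adjusted p-value 6.8e-06). Without any 1 library it stayed between 1.76 and 2.17. Col15a1 was the member of this group of 8 that passed the test, and the group's median was 0.07.

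The main chains of vascular type IV collagen were more abundant than Col15a1 in Input and did not pass the test. Col4a1 (chr8:11198423-11312826, minus strand) and Col4a2 (chr8:11312805-11449287, plus strand) lie head to head, and their deposited spans overlap at the starts. Col4a2 had 962, 834 and 808 scaled reads in Input and 1266, 1150 and 786 in the positive fraction, where animal 208 was below all Input libraries. Its log2 fold change was 0.30 ± 0.14 with an edgeR adjusted p-value of 0.11, and 0.029 with the animal as a block. Col4a1 had 802, 785 and 658 scaled reads in Input and 962, 864 and 620.0 in the positive fraction, with a log2 fold change of 0.12 ± 0.14 and overlapping groups. Without the Positive library of animal 208 both chains passed the test, at 0.48 for Col4a2 and 0.29 for Col4a1 (edgeR adjusted p-values 0.00089 and 0.034). Without both libraries of animal 208 Col4a2 passed at 0.43 and Col4a1 did not at 0.20 (0.0067 and 0.15), and without Positive 201 neither did, at 0.16 and -0.012 (0.40 and 0.95). The chains Col4a3, Col4a4, Col4a5 and Col4a6 had means of 27.0 to 74.2 scaled reads in either fraction and did not pass the test, nor did Col18a1, the source of the endostatin fragment.

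Laminins are trimers of an alpha, a beta and a gamma chain, and chains of each kind were measured. Of 11 chains, 2 were higher, 2 were lower and 7 did not pass, with a median log2 fold change of -0.06. Lama4, an alpha chain of vessel walls, had 79.6, 77.0 and 80.8 scaled reads in Input and 148, 131 and 99.7 in the positive fraction. The groups were separate, with a log2 fold change of 0.68 ± 0.20 (edgeR adjusted p-value 0.013). Lamb2, a beta chain of vessels and synapses, had 638, 650.2 and 554 scaled reads in Input and 975, 976 and 615 in the positive fraction, where animal 208 overlapped Input. Its log2 fold change was 0.48 ± 0.15 (edgeR adjusted p-value 0.021). Both calls depended on single libraries: the adjusted p-value was 0.062 for Lama4 without the Positive library of 201, and 0.079 to 0.092 for Lamb2 without Input 208, Positive 201 or Positive 207.

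The lower laminin chains were Lamb1 and Lama2. Lamb1, the beta chain of the classical laminins, had 746, 889.9 and 945 scaled reads in Input and 590.1, 626 and 578 in the positive fraction. The groups were separate and the log2 fold change was -0.52 ± 0.10 (edgeR adjusted p-value 0.0011). Lama2, the alpha chain whose loss causes a muscular dystrophy, had 232, 263 and 206 scaled reads in Input against 192, 175 and 152, with a log2 fold change of -0.44 ± 0.15 (edgeR adjusted p-value 0.032). Its groups were also separate, but the adjusted p-value was between 0.066 and 0.15 in 4 of the 6 fits without 1 library (Input 201, Input 207, Positive 207, Positive 208). Lamc1, the gamma chain of most laminins, had 554, 563 and 552 scaled reads in Input and 569.5, 549 and 482 in the positive fraction. These groups overlapped, and the log2 fold change of -0.06 ± 0.10 did not pass. Lama5, the other alpha chain of endothelial laminins, had 253, 207 and 217 scaled reads in Input and 386, 336 and 169 in the positive fraction. Here animal 208 went against animals 201 and 207, and the log2 fold change of 0.40 ± 0.23 (edgeR adjusted p-value 0.18) was 0.68 without the Positive library of 208 (0.0011) and 0.17 without that of 201 (0.60). The other 4 fits without 1 library did not call it.

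Genes of the partners of the basement membrane were read alongside from a list of 12, of which 2 were higher and 2 lower with a median of 0.05. The 3 most abundant were Sparc, a secreted collagen-binding glycoprotein, Agrn, the proteoglycan agrin, and Dag1, the laminin receptor dystroglycan. Sparc rose from 5317 ± 177 to 29350 ± 4895 scaled reads (SD, n = 3), a log2 fold change of 2.46 ± 0.12 (edgeR adjusted p-value 4e-09), more than any collagen or laminin chain. Agrn and Dag1 had log2 fold changes of -0.17 and 0.10 and did not pass. Endothelial markers, summed over 10 genes, rose from 2020 to 2426 scaled reads in the Input libraries to 5464 to 11240 in the Positive libraries. Their median log2 ratio per animal was 2.21, 2.24 and 1.22 in animals 201, 207 and 208, beside 0.29, 0.24 and -0.42 for the basement membrane collagens. The part of endothelial RNA in the values of Col15a1, Lama4 and Lamb2 was not tested.

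Fibrillar collagens moved in opposite directions, with 1 member higher and 2 lower of 10. Col27a1 (chr4:63214004-63334991, plus strand), a fibrillar chain of cartilage, had 161, 146 and 155 scaled reads in Input and 414, 547 and 317 in the positive fraction. All Positive libraries lay above all Input libraries, and the log2 fold change was 1.47 ± 0.18 (edgeR adjusted p-value 2.7e-05). Type I collagen, the major collagen of meninges and connective tissue, was lower in both chains. Col1a2 (chr6:4504814-4541544, plus strand) had 542, 802 and 561 scaled reads in Input and 325, 353 and 174 in the positive fraction, without overlap. This was 44.8% of the Input level, a log2 fold change of -1.16 ± 0.22 (edgeR adjusted p-value 0.00093).

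Col1a1, its partner chain, had 243, 430.4 and 258 scaled reads in Input and 184, 264 and 128 in the positive fraction, where the library of 207 overlapped Input. Its log2 fold change of -0.69 ± 0.26 (edgeR adjusted p-value 0.042) lost the call without Input 207 (0.25), Positive 201 (0.084) or Positive 208 (0.10), and with the animal as a block the adjusted p-value was 0.001. Col3a1, which joins type I collagen in elastic tissues, had 91.8, 105 and 81.8 scaled reads in Input and 88.6, 182 and 70.6 in the positive fraction. Its groups overlapped, and the value of animal 207 set the sign of its log2 fold change of 0.30 ± 0.30, which was -0.23 without that library. Col11a2, the fibrillar chain with the most reads, did not pass at 0.02 ± 0.14. Col5a3 at 0.55 ± 0.30 did not pass with all libraries, and did without the Positive library of 208 (0.87, edgeR adjusted p-value 0.0021), while without another library it was as low as 0.30 (adjusted p-value up to 0.47).

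Markers of fibroblasts were lower along with type I collagen. Their summed level over 10 genes was 3659 to 4198 scaled reads in the Input libraries and 1701 to 2424 in the Positive libraries, without overlap. The median log2 ratio of these markers per animal was -0.98, -0.65 and -1.04 in animals 201, 207 and 208. The part of fibroblast RNA in the values of Col1a1 and Col1a2 was not tested.

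Collagens that build beaded filaments, hexagonal networks or anchoring fibrils, grouped here with Col26a1, had 3 lower and no higher members of 8. Col8a1 (chr16:57624258-57754737, minus strand) and Col8a2 (chr4:126286793-126314330, plus strand) encode the chains of type VIII collagen, which forms networks in the cornea and in vessel walls. Col8a1 had 263, 235 and 318 scaled reads in Input and 94.8, 85.6 and 58.2 in the positive fraction, the largest depletion among the members (log2 fold change -1.77 ± 0.20, edgeR adjusted p-value 1e-05). Col8a2 had 314, 244 and 326 scaled reads in Input and 177, 95.8 and 77.9 in the positive fraction. Its log2 fold change was -1.34 ± 0.25 (edgeR adjusted p-value 0.00075). Both chains were separate between fractions in every library, and each stayed called without any 1 of them. Col26a1, a short collagen-like chain, was lower by a log2 fold change of -0.90 ± 0.22 (edgeR adjusted p-value 0.0044), from 71.3 to 78.5 scaled reads in Input to 37.4 to 43.2. Markers of choroid plexus, summed over 8 genes, were at 28610 to 38440 scaled reads in the Input libraries and 7105 to 8662 in the Positive libraries, and their part in the values of type VIII collagen was not tested.

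The type VI chains form beaded microfilaments at cell surfaces, and their calls depended on the fit. Col6a1 had 779, 802 and 526 scaled reads in Input and 693, 734 and 295 in the positive fraction, lower in each animal while the groups overlapped. Col6a2 had 352, 386 and 265 against 259.5, 322 and 165, also lower in each animal. Col6a3 had 152, 121 and 60.8 against 188, 232 and 99.7, higher in each animal. In the unpaired fit of all 6 libraries none of the 3 passed, with log2 fold changes of -0.29, -0.43 and 0.64. With the animal as a block the edgeR adjusted p-values were 0.026 for Col6a1, 0.010 for Col6a2 and 0.0068 for Col6a3. In unpaired fits without 1 library, Col6a3 passed without Positive 208 (0.91, edgeR adjusted p-value 0.011) and Col6a2 without Positive 207 (-0.66, 0.030). Without Positive 208 the log2 fold change was -0.20 for Col6a2 and 0.022 for Col6a1, which passed in none of these fits. Without Input 208 or Positive 207 that of Col6a3 was 0.35 and 0.37. Col7a1, the anchoring fibril chain, had 101, 52.6 and 58.7 scaled reads in Input and 134, 105 and 69.6 in the positive fraction, with a log2 fold change of 0.54 ± 0.29 that did not pass with all libraries (edgeR adjusted p-value 0.14). Its adjusted p-value was 0.045 with the block, 0.035 without Input 201 and 0.028 without Positive 208, and 0.23 to 0.45 without any other library. Col6a4 did not pass.

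Among 8 fibril-associated collagens, which sit on the surface of fibrils, 1 was higher and 2 were lower. Col14a1 had 32.6, 17.9 and 24.1 scaled reads in Input and 80.3, 63.2 and 29.1 in the positive fraction, where the library of 208 overlapped Input. Its log2 fold change of 1.21 ± 0.37 (edgeR adjusted p-value 0.017) rested on few reads, and the adjusted p-value was 0.051 to 0.077 without Input 207, Input 208 or Positive 201. Col9a2, a chain of the collagen that coats cartilage fibrils, had 183, 263 and 178 scaled reads in Input and 131, 109.7 and 112 in the positive fraction. Col19a1, a chain known from hippocampal interneurons, had 212, 208 and 224 against 141, 139 and 106. Both had separate groups, at -0.83 ± 0.18 and -0.74 ± 0.16 (edgeR adjusted p-values 0.0027 and 0.002).

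Col9a3, the most abundant chain of that group, differed between animals. It had 1037, 822 and 1062 scaled reads in Input and 1104, 605 and 451 in the positive fraction. The Positive value was slightly above Input in animal 201 and below it in the others. The log2 fold change was -0.44 ± 0.24 (edgeR adjusted p-value 0.15), and the adjusted p-value was 0.019 with the animal as a block and 0.00033 without the Positive library of 201, where the log2 fold change was -0.88. Without Positive 208 it was -0.19 (0.42), and without both libraries of animal 208 it was -0.12 (0.67). Col12a1, Col16a1, Col20a1 and Col22a1 did not pass.

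Transmembrane collagens, which span the cell membrane, had 2 lower and no higher members of 4. Col23a1 had 404, 439.8 and 379.7 scaled reads in Input and 328, 329 and 196 in the positive fraction, with a log2 fold change of -0.52 ± 0.17 (edgeR adjusted p-value 0.026). Its groups were separate, and the adjusted p-value was 0.064 without Input 201 and 0.095 without Input 207. Col17a1, the hemidesmosome collagen, was near the limit of detection at 25.2 to 34.7 scaled reads in Input and 4.15 to 18.5 in the positive fraction (log2 fold change -1.37 ± 0.41, edgeR adjusted p-value 0.016, and 0.059 without Input 201). Col25a1, a neuronal collagen that binds amyloid, was the most abundant of the 4 with 1089, 1136 and 1082 scaled reads in Input and 898, 987 and 1032 in the positive fraction. These groups were separate by a small margin, and the log2 fold change of -0.18 ± 0.08 did not pass (edgeR adjusted p-value 0.09).

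**Figure D2:**
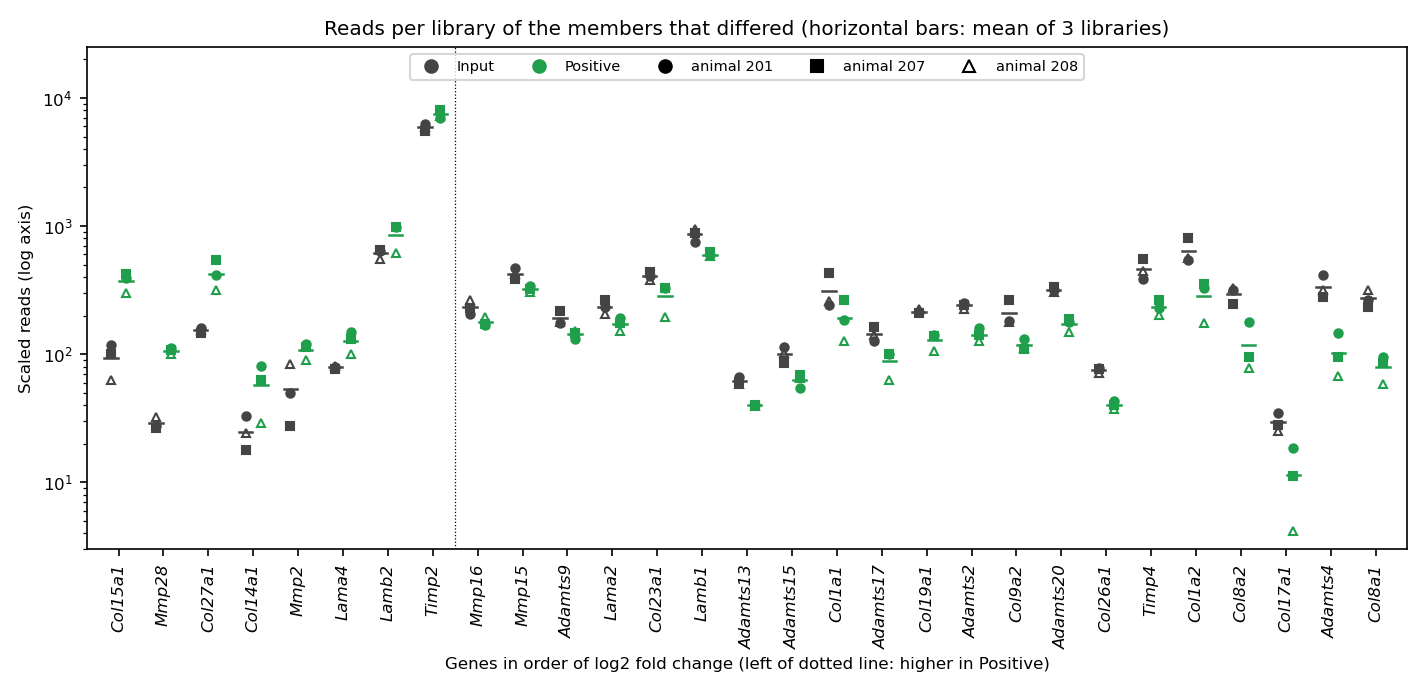
Scaled reads on a log axis in each of the 6 libraries for the 29 members that differed, with horizontal bars for the mean of 3 libraries per fraction. Groups overlapped for Col14a1, Col1a1 and Lamb2 and were separate for the other 26.

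The machinery that matures collagen was described from a list of 24 genes, of which 21 were tested, 6 were higher and 7 lower, with a median of -0.26. The most abundant were Ppib, a prolyl isomerase of the endoplasmic reticulum, and P4hb and P4ha1, the beta and alpha subunits of prolyl 4-hydroxylase. Ppib did not pass, at a log2 fold change of 0.15 ± 0.10. P4hb rose from 1589 ± 148 to 2789 ± 243 scaled reads and P4ha1 from 891 ± 102 to 1533 ± 190 (SD, n = 3), with log2 fold changes of 0.81 ± 0.09 and 0.78 ± 0.11 (edgeR adjusted p-values 1.3e-05 and 8e-05). Chosen after their values were seen, Plod1 and Plod3, which hydroxylate lysine in collagen, had 2.01 ± 0.15 and 1.34 ± 0.11. Pcolce and Pcolce2, which enhance the removal of the C-terminal propeptide, were likewise chosen after their values were seen and had -1.48 ± 0.20 and -1.86 ± 0.18.

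ADAMTS proteases are secreted enzymes with thrombospondin repeats, and no Adamts gene was higher in the positive fraction, beside 23.9% of all genes. Of 15 genes 7 were lower, 4 of the 7 that cleave hyalectans and 3 of the other 8, beside 22% of all genes. Adamts4 (chr1:171250421-171260637, plus strand), an aggrecanase, had 412, 277 and 315 scaled reads in Input and 145, 94.9 and 67.5 in the positive fraction. The groups were separate, at 30.6% of the Input level and a log2 fold change of -1.71 ± 0.24 (edgeR adjusted p-value 7.6e-05). Adamts20, a protease of versican, had 317, 332 and 303 scaled reads in Input and 178, 189 and 148 in the positive fraction (-0.89 ± 0.14, edgeR adjusted p-value 0.00018), again without overlap.

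The remaining calls among hyalectan-cleaving enzymes were smaller. Adamts15 had 114, 85.5 and 102 scaled reads in Input and 54.6, 68.8 and 65.4 in the positive fraction, with a log2 fold change of -0.67 ± 0.21 (edgeR adjusted p-value 0.018, and 0.055 to 0.072 without Input 201, Input 208 or Positive 201). Adamts9 had 174, 217 and 179 against 131, 146 and 151, with -0.42 ± 0.15 (edgeR adjusted p-value 0.041, and 0.073 to 0.19 without Input 207, Input 208, Positive 201 or Positive 207). Both had separate groups. Adamts1, the most abundant of the group, had 376, 324 and 354 scaled reads in Input and 518, 276 and 298 in the positive fraction. Its groups overlapped and its log2 fold change was 0.05 ± 0.20, with a sign that depended on the Positive library of 201 (-0.30 without it).

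Of the other ADAMTS genes, Adamts2, which removes the N-terminal propeptide of fibrillar procollagens, had 252, 243 and 226 scaled reads in Input and 159, 140.4 and 126 in the positive fraction. It was separate between fractions, with a log2 fold change of -0.76 ± 0.15 (edgeR adjusted p-value 0.00096). Adamts17 had 126, 162 and 140.5 against 101, 99.5 and 62.3 (-0.70 ± 0.21, edgeR adjusted p-value 0.015, and 0.072 without Input 207). Adamts13, which cleaves von Willebrand factor, had 66.3, 61.1 and 58.7 against 40.2, 40.0 and 39.5. Although its groups were separate, its adjusted p-value of 0.032 (log2 fold change -0.64 ± 0.22) was 0.065 to 0.084 in the 5 fits that left out any library but Positive 208. Adamts10, the most abundant of these 8, did not pass at -0.06 ± 0.20.

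Genes of the hyalectan matrix, namely the hyalectans and their partners, were taken from a list of 12, of which 11 were tested. Not all of them are substrates of the hyalectan-cleaving enzymes. Of the 11, 5 were lower and none was higher, with a median of -0.34. Bcan, Ncan and Tnr, the genes of brevican, neurocan and tenascin-R, were the most abundant. Ncan fell from 3940 ± 320 to 3239 ± 38.8 scaled reads (SD, n = 3), a log2 fold change of -0.28 ± 0.08 (edgeR adjusted p-value 0.011, and 0.085 without Input 208), and Bcan and Tnr did not pass at -0.30 ± 0.14 and -0.06 ± 0.11. Vcan, the versican gene, was chosen after its value was seen and had -1.22 ± 0.17. Markers of oligodendrocytes summed to 51710 to 58730 scaled reads in the Input libraries and 11540 to 15300 in the Positive libraries over 8 genes, and those of their precursors to 4682 to 5038 and 1159 to 1658. Their part in the values of Adamts4 and of the genes of the hyalectan matrix was not tested.

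Of 5 secreted MMPs 2 were higher and none was lower. Their median of 0.68 is the value of Mmp11, which passed the filter on low values only through the positive fraction, as Mmp19 did, and it was 0.28 without Input 208 and 0.97 without Input 201. Mmp28 (ENSMUSG00000020682, chr11:83440768-83463071, minus strand), the protease epilysin, had 27.5, 26.3 and 32.5 scaled reads in Input and 111, 107 and 99.7 in the positive fraction. The 3 animals were close to each other in both fractions, with a log2 fold change of 1.88 ± 0.22 (edgeR adjusted p-value 1.7e-05) that stayed between 1.81 and 1.97 without any 1 library. Mmp2, gelatinase A, had 50.0, 27.2 and 83.9 scaled reads in Input and 120.5, 114 and 90.3 in the positive fraction. The groups were separate only by the small step between the libraries of animal 208, and the log2 fold change of 1.02 ± 0.31 (edgeR adjusted p-value 0.019) lost the call without Input 201 or Input 207 (0.066 in each case).

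The other secreted enzymes were sparse. Mmp9, gelatinase B, had 33.7, 26.3 and 26.2 scaled reads in Input and 35.0, 33.5 and 36.4 in the positive fraction, with overlapping groups and a log2 fold change of 0.28 ± 0.26. Mmp11 and Mmp19 had means of 18.8 to 30.3 scaled reads and did not pass. Each microglial and border macrophage marker had a larger log2 fold change than any MMP, and border macrophage markers summed to 197.2 to 255.6 scaled reads in Input and 2644 to 5788 in the positive fraction over 7 genes. Their part in the values of Mmp28 and Mmp2 was not tested.

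Membrane-anchored MMPs were more abundant, and 2 of 5 were lower. Mmp15 had 468, 389 and 421 scaled reads in Input and 338, 322 and 303 in the positive fraction, with separate groups and a log2 fold change of -0.41 ± 0.12 (edgeR adjusted p-value 0.012, and 0.053 without Input 201). Mmp16 had 207, 227 and 266 against 169, 173 and 195, with -0.38 ± 0.15 (edgeR adjusted p-value 0.047). That call was lost in 4 of the 6 fits without 1 library (Input 207, Input 208, Positive 201 or Positive 207, adjusted p-values of 0.094 to 0.22). Mmp14, the activator of pro-MMP2, had 318, 255 and 237 scaled reads in Input and 441, 352 and 281 in the positive fraction, higher in each animal with overlapping groups. Its log2 fold change was 0.41 ± 0.17, with an edgeR adjusted p-value of 0.065, 0.015 with the animal as a block, 0.0079 without the Positive library of 208, 0.038 without Input 201 and up to 0.29 without any other library. Mmp17, a lipid-anchored enzyme, was the most abundant MMP at 3814, 3730 and 3556 scaled reads in Input and 3381, 3390 and 3954 in the positive fraction, and did not pass at -0.05 ± 0.08.

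The TIMP inhibitors split, with 1 higher, 1 lower and 1 that did not pass. Timp2, which inhibits MMPs and takes part in the activation of pro-MMP2, had 6245, 5529 and 5902 scaled reads in Input and 6947, 8107 and 7286 in the positive fraction. The groups were separate and the change was small, 1.26-fold (log2 0.34 ± 0.09, edgeR adjusted p-value 0.0067). Timp4 had 389, 554 and 449 scaled reads in Input and 231, 263 and 202 in the positive fraction, 50.0% of the Input level without overlap (log2 fold change -1.0 ± 0.15, edgeR adjusted p-value 0.00016). Timp4 overlaps Syn2 on the opposite strand, which had 10550 scaled reads in Input and 12160 in the positive fraction, and the part of Syn2 reads was not tested. Timp3, the inhibitor bound to matrix, had 1982, 1905 and 1825 against 1876, 2010 and 1367, with overlapping groups at -0.12 ± 0.12.

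Genes that control matrix proteolysis outside these families were read from a list of 20, of which 8 were higher and 4 lower with a median of 0.19. Spock2 and Spock1, which encode testican proteoglycans, and Lrp1, a receptor that clears proteases, were the most abundant. Spock1 rose by a log2 fold change of 0.47 ± 0.11 and Lrp1 by 0.25 ± 0.09 (edgeR adjusted p-values 0.0031 and 0.038), and Spock2 did not pass at 0.19 ± 0.08. The call of Lrp1 was lost in 5 of the 6 fits without 1 library (all but Positive 208, adjusted p-value up to 0.14), and that of Spock1 in none. Plau and Plaur, encoding urokinase and its receptor, were chosen after their values were seen. They had log2 fold changes of 3.12 ± 0.23 and 2.08 ± 0.41, each numerically above that of any member, from means of 43.7 and 9.99 scaled reads in Input.

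**Figure D3:**
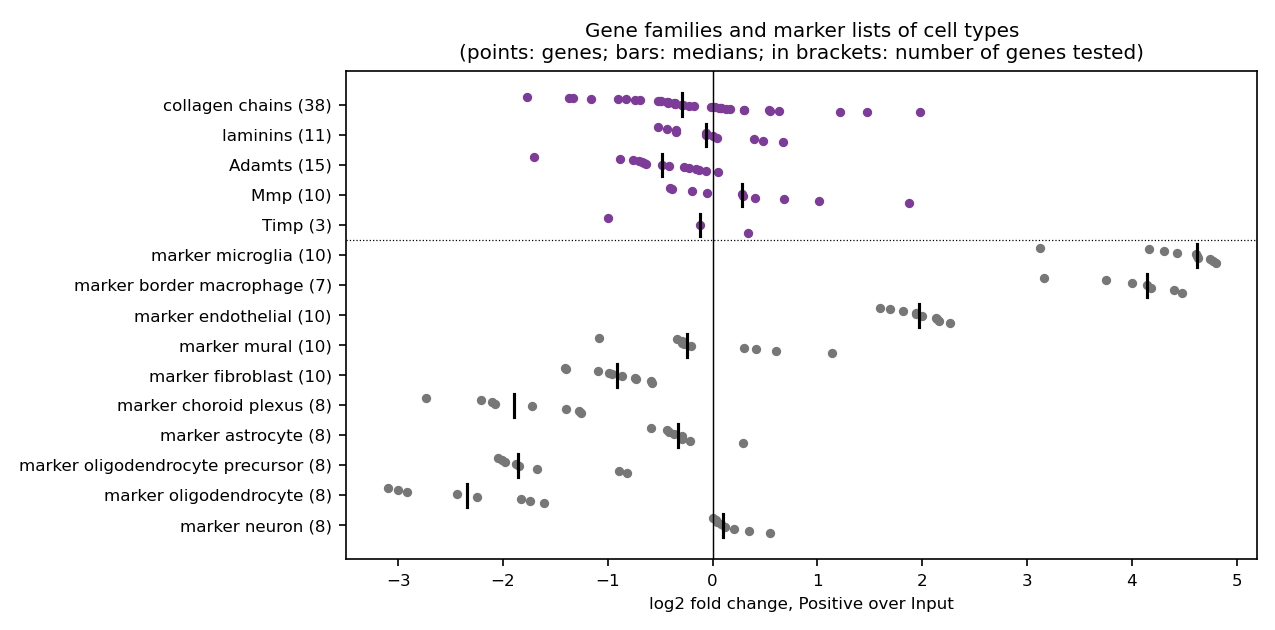
Log2 fold change of the positive fraction over Input, with 1 point per gene, for the 5 member families and the 10 cell type marker lists, and a bar at the median of each. Microglial and border macrophage markers lie at medians of 4.62 and 4.15, while the family medians run from -0.48 for Adamts to 0.29 for Mmp.

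The spread between animals within each group was examined from the log2 ratio of Positive to Input in each animal. The median over collagen chains was -0.13, -0.15 and -0.53 in animals 201, 207 and 208. For Adamts genes it was -0.32, -0.48 and -0.63, although single genes had ratios above 0 in an animal, such as Adamts1 with 0.46 in 201 and Adamts10 with 0.42 in 207. Laminins had -0.13, -0.25 and -0.20, with chains that went both ways. Positive 208 held the lowest Positive value in 9 of 11 laminin chains, and the ratios of Lama4 were 0.89, 0.76 and 0.30. The Mmp genes had -0.06, 0.24 and 0.20. Over all genes tested the 3 medians lay between -0.0089 and -0.002.

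**Figure D4:**
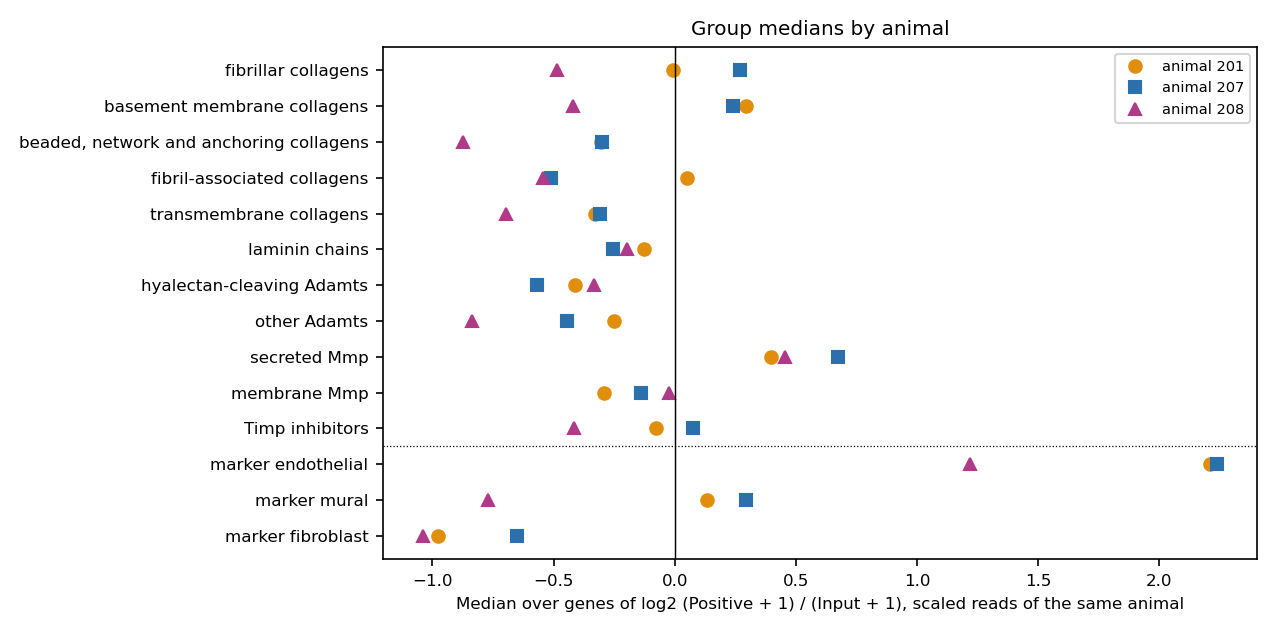
Median over genes of the log2 ratio of Positive to Input in each of the 3 animals, for the role groups and for cell type markers. Animal 208 lies lowest for each of the 5 collagen groups, the other Adamts genes, the Timp genes and the endothelial, mural and fibroblast markers, and not for laminins, hyalectan-cleaving Adamts genes or either Mmp group.

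Levels of different members were compared per kilobase of exon, since longer transcripts collect more reads. The median over the 78 members was 17.2 scaled reads per kilobase in Input and 17.8 in the positive fraction. Timp2 was the highest member with 1512 and 1911 scaled reads per kilobase, followed in Input by Mmp17 with 559 and 540, Col9a3 with 253 and 187, Timp3 with 234 and 215 and Mmp24 with 167 and 146. Of the enriched members, Col15a1, Col27a1, Mmp28 and Mmp2 lay below the median of the members in Input and above it in the positive fraction. Their scaled reads per kilobase were 14.8 and 58.4 for Col15a1, 11.8 and 32.7 for Col27a1, 7.43 and 27.4 for Mmp28 and 15.9 and 32.1 for Mmp2.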

How the data were processed

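RNA was measured in Input and Positive TRAP fractions of hippocampus from 3 mice, 6 libraries in all, grouped by the fraction label. The authors made directional poly(A) libraries, aligned the reads to mm10 in Strand NGS using strand and kept genes that reached 20 raw reads in all 3 libraries of Input or of Positive. The deposited raw columns hold expected counts, which need not be whole numbers. A second set of deposited columns, per gene and library, is in log2 units relative to Input and was not used, since size factors were computed from the raw columns. Depth was 14879734 to 17757918 reads per library, without molecular identifiers, so read numbers bound counting error only.

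Expected counts were rounded and tested in R 4.3.3 by the edgeR 4.0.16 quasi-likelihood method without pairing, as the study did, with RLE scaling, a filter of over 20 scaled reads in all 3 libraries of a fraction (45 genes removed, 15343 kept, all 78 members among them) and Benjamini-Hochberg adjustment over all genes kept. An adjusted p-value under 0.05 was a call. The standard error of a log2 fold change was its absolute value over the square root of the quasi-likelihood F statistic. Log2 ratios per animal used a pseudocount of 1. Exon lengths were taken from GENCODE M21 and promoters from RefSeq. The same-animal fractions pair by the labels: their deviations from the group means correlated at 0.27, 0.083 and 0.15 over 12136 genes. The method was also run on simulated data with few changed genes, log2 changes of at least 1 in size and no animal effect. That run does not show how the method does on smaller changes, on many changed genes or on paired fractions.

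The members and lists were chosen with earlier results of these data known. Any member could be named, and values per library were given for up to 4 called members with the largest change and a mean of at least 50 scaled reads in each role group, and for the member with the highest mean. The other members with values per library, and the genes of the pathway lists said to be so, were chosen after their values were seen. Pathway and marker lists were named by their 3 highest means. Some genes are not reported here. Alternatives were TMM and total count scaling, no filter and a filter at 100 scaled reads, DESeq2 1.42.0, the animal as a block, halved reads, leaving out each library, and, chosen after seeing the data, leaving out both libraries of animal 208.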

Additional observations from a re-analysis of the deposited data

How the results depend on the processing

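The number of members that differed was 29, and was 20 to 36 without 1 library, 36 with the animal as a replicate block, 26 with DESeq2, 31 with total count scaling, and 22 of 46 tested with a filter at 100 scaled reads. TMM scaling, no filter and halved reads each gave the same 29 members. The share of all genes that was called moved as well, from 46% in the main fit. It was 36.1% without Input 207, where 20 members were called, and 47.3% without Positive 208, where 36 were. For all genes DESeq2 gave 43.5%, total count scaling 47.7%, the filter at 100 scaled reads 48.3% and the block 49.3%. These shares were not split into higher and lower genes. The number of higher members was 8. It was 4 with the filter at 100 scaled reads, which tested fewer genes, 5 to 15 without 1 library (5 without Positive 201, 15 without Positive 208), and 13 without both libraries of animal 208, an alternative chosen after seeing the data. The number of lower members was 21, and was 14 to 21 without 1 library and 14 without both libraries of animal 208. Without Positive 208, 27 of the 29 members were also called, and Col1a1 and Lama2 were not. The block added Col4a2, Col6a1, Col6a2, Col6a3, Col7a1, Col9a3 and Mmp14, changed no other call and lost none. DESeq2 lost Adamts9, Adamts13 and Mmp16.

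Signs that turned belonged to members that were not called. With total count scaling, which moved the median of all genes by -0.0766, the log2 fold change was -0.057 for Col11a2, -0.026 for Adamts1 and -0.029 for Col4a3bp. With the filter at 100 scaled reads it was -0.0063 for Col11a2. Without both libraries of animal 208 it was 0.10 for Adamts10, 0.0037 for Lamc1 and 0.0023 for Timp3. Without 1 library it ranged from -0.12 to 0.19 for Col11a2, -0.51 to 0.022 for Col6a1, -0.30 to 0.22 for Adamts1, -0.20 to 0.14 for Adamts10, -0.012 to 0.29 for Col4a1, -0.11 to 0.0080 for Lamc1, -0.23 to 0.030 for Timp3 and -0.23 to 0.55 for Col3a1. The cause was not tested. With 3 animals per fraction, 15 members with means under 50 scaled reads are the least precise.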

Other observations

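Some members share their position with other genes. Of the 78 members, 12 overlap another gene of the table, 11 of them on the opposite strand, and 2 (Col20a1 and Lamb3) overlap a noncoding or unclassified gene on the same strand, so their reads are uncertain. Mmp11 had a mean of 18.8 scaled reads in Input and overlaps Chchd10 on the opposite strand with 1817.

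Col4a3bp, which the naming rule takes although it is no collagen, had 1294, 1430 and 1379 scaled reads in Input and 1372, 1503 and 1370 in the positive fraction, a log2 fold change of 0.05 ± 0.08.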
